A study of Gallus gallus with 16 samples.

Results

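The liver transcriptome of broilers fed diet H was compared with that of broilers fed diet E. The members were chosen by the dietary treatment recorded for each bird, which gave 4 birds on diet H and 4 on diet E, 8 of the 16 birds of the series. All birds were male broiler chickens (Gallus gallus) with the liver taken at day 21, and the other 8 birds received diet F or diet A, with 4 birds each. The series title names saponins, a class of soap-like glycosides of plants, and a blend of essential oils from oregano, thyme, rosemary and star anise as feed additives. The labels used here give the diets only as letters, so which letter carried which additive is not stated here, and neither diet H nor diet E can be called the unsupplemented feed. Diets H and E are therefore described as 2 diets, with differences written as diet H minus diet E. Whole liver tissue was measured, so for every gene below fewer cells of a type and less RNA per cell cannot be told apart.

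The liver makes bile acids from cholesterol, clears ammonia and builds uric acid as the main nitrogen waste of birds, and in chickens it is also the main site of fatty acid synthesis. Bile acid synthesis by the classic pathway starts with CYP7A1, cholesterol 7-alpha-hydroxylase, whose transcription falls when bile acids return from the gut through the receptor NR1H4 and the gut hormone FGF19. Plant essential oils and saponins are usually studied in feed for what they do in the gut, and saponins are known in several species to bind sterols and bile acids. Hepatocytes make up most of the organ, beside resident macrophages, stellate, endothelial and bile duct cells and blood cells.

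The arrays measured 20804 features as log2 signals, and the 12300 with 1 gene symbol covered 11528 genes. The median signal of an array was 6.11 to 6.21. With 4 arrays a diet, the standard error of diet H minus diet E had a median of 0.216 (log2), so that a 95% interval typically reached 0.458 to each side. Of 13 hepatocyte markers, 11 lay in the upper quartile of all signals in all 8 livers, and 0 lay under the 20th percentile, the mark used here for dim features (4.31). Each diet holds 2 birds with title numbers up to 25 and 2 above 25, in consecutive pairs (21 and 22, and 46 and 47, for diet H replicates 1 to 4, against 11 and 12, and 36 and 37, for diet E). What these numbers stand for is not stated in the labels.

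The pair of diet H birds with the higher numbers, replicates 3 and 4, stood apart. Their mean correlation with the other 15 arrays was 0.948 and 0.946, against 0.975 and 0.966 for diet H replicates 1 and 2 and 0.968 to 0.976 for the diet E birds. Diet H replicates 1 and 2 correlated at 0.933 on average with replicates 3 and 4 of their own diet, and at 0.975 with the diet E birds. The 4 diet H birds thus fell into 2 pairs that were less alike than either pair was to diet E, where replicates 3 and 4 averaged 0.951. For many of the differences that these 2 birds carried, the value within each set of title numbers or without them stands beside it. Where no such value is given, these birds may still have had a part.

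Over all 8 birds, the diets did not differ in any single feature after adjustment. In limma, 0 of 20804 features (0%) passed an adjusted p of 0.05, and 566 (2.72%) had an unadjusted p under 0.05, with 348 (1.67%) higher and 218 (1.05%) lower in diet H. Among the 11528 genes, 222 (1.93%) had an unadjusted p under 0.05, 110 (0.954%) higher and 112 (0.972%) lower. In 215 features (1.03%) the birds of the diets did not overlap. The 4 diet H birds all lay above the 4 diet E birds for 46 genes (0.399%), and all below them for 47 (0.408%). Chance alone gives an unadjusted p under 0.05 to a share of about 0.05 of features, so the 2.72% was not more than that. Groups of 4 and 4 birds also fail to overlap by chance in some features, so a lack of overlap does not by itself mark a difference. Genes named from these 8 birds are therefore given by their values, without a claim that they changed.

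**Figure D1:**
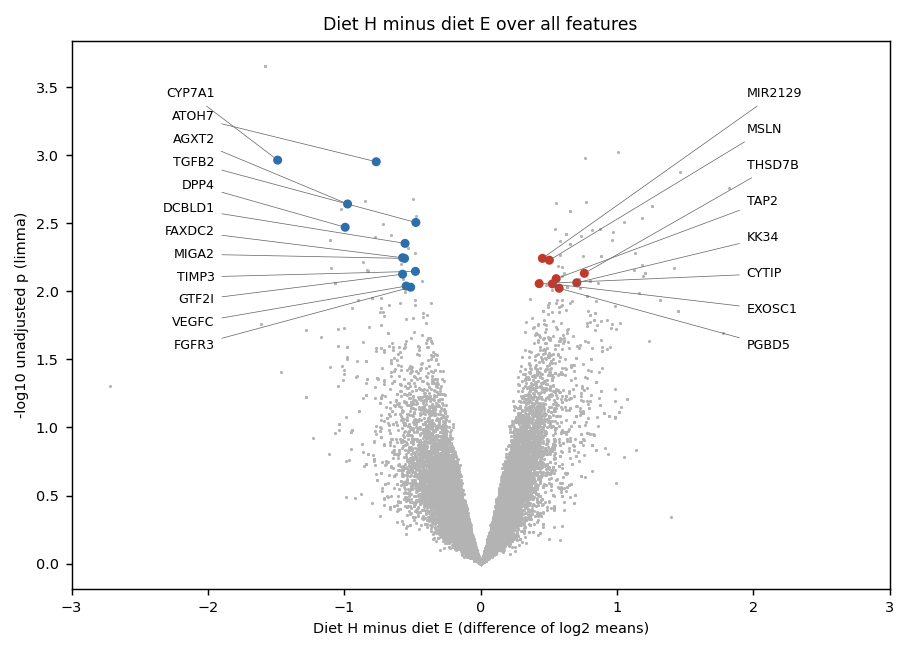
Diet H minus diet E for all features, as the difference of log2 means (horizontal axis) against minus log10 of the unadjusted limma p (vertical axis). Grey points are features, and labelled points are the 20 named genes with the smallest p, of which CYP7A1 has the largest difference (-1.49). No point passes adjustment over 20804 features.

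The gene with the smallest p was CYP7A1, the rate-limiting enzyme of bile acid synthesis. Its log2 signal was 9.43, 10.71, 8.95 and 10.01 in the 4 diet H livers, against 11.29, 10.95, 11.34 and 11.47 in the diet E livers. All diet H birds lay below all diet E birds, and the diet H birds were also more scattered. The means were 9.77 ± 0.76 in diet H and 11.26 ± 0.22 in diet E (SD, n = 4 each), a difference of -1.49 ± 0.38 (SE; 95% interval -2.28 to -0.69), or 2.81-fold lower, with adjusted p = 0.942. The 4 features ranked ahead of it had either no gene symbol or several. The difference was -1.05 within title numbers up to 25 and -1.93 above 25, and -1.19 without diet H replicates 3 and 4. Diet F spanned 10.31 to 11.37 and diet A 10.04 to 11.76, so 3 of the 4 diet H birds lay below every diet F and diet A bird, while the diet E birds lay inside the range of diet A.

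The bile acid genes as a list did not show a difference of the size of CYP7A1. Of the 20 genes of bile acid synthesis and transport, 8 were higher and 12 lower in diet H, with a median of -0.05 beside -0.02 over all genes. The list median was -0.04 within title numbers up to 25 and -0.21 above 25. CYP7A1 was the 1 member at an unadjusted p under 0.05 and the 1 member without overlap. CYP8B1, the sterol 12-alpha-hydroxylase that leads to cholic acid, read 9.21, 6.76, 6.58 and 7.86 in diet H, against 8.52, 8.14, 8.36 and 8.19 in diet E. Its 4 diet H birds held both the highest and the 3 lowest values, and the difference of -0.70 ± 0.51 was not distinguishable from 0 (95% interval -1.77 to 0.37). CYP27A1, which opens the alternative pathway in mitochondria, read 10.21, 9.83, 11.31 and 11.17 in diet H, against 10.75, 9.40, 10.28 and 10.37 in diet E. The 2 high values belong to diet H replicates 3 and 4, and the difference of 0.43 became -0.18 without them.

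Enzymes and secreted factors followed CYP7A1 among genes lower in diet H. AGXT2, a mitochondrial aminotransferase that handles glyoxylate and dimethylarginines, read 7.91, 8.16, 7.07 and 7.42 in diet H, against 8.56, 8.40, 8.56 and 8.94 in diet E. No bird overlapped, and the difference was -0.98 ± 0.27 (1.97-fold lower, adjusted p = 0.942), with -0.45 within title numbers up to 25 and -1.50 above. DPP4, the peptidase that trims incretin hormones, read 8.88, 8.31, 7.78 and 7.29 in diet H, against 8.91, 9.45, 8.88 and 9.01 in diet E. Its difference of -0.99 ± 0.29 became -0.46 without diet H replicates 3 and 4. ATOH7, a basic helix-loop-helix transcription factor best known from the retina, read 5.25, 5.51, 5.31 and 5.03 in diet H, against 5.75, 6.54, 6.11 and 5.76 in diet E. The groups did not overlap, and the difference was similar in both sets of title numbers, at -0.77 ± 0.19 over all birds, -0.76 within title numbers up to 25 and -0.77 above.

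Genes of growth factor signalling and an inhibitor of matrix enzymes were also present among the lower ones. TGFB2, a transforming growth factor beta ligand, read 5.17, 5.35, 5.42 and 5.25 in diet H, against 5.96, 5.75, 5.47 and 5.90 in diet E, without overlap and with a difference of -0.48 ± 0.14. DKK3, a secreted protein of the Dickkopf family of WNT regulators, read 6.35, 6.42, 5.59 and 6.26 in diet H, against 6.75, 7.91, 7.30 and 6.45 in diet E. Its groups did not overlap, but the gap between the closest birds was small and the difference was -0.94 ± 0.34. VEGFC, a growth factor of lymphatic vessels, differed by -0.55 ± 0.18 (-0.31 without diet H replicates 3 and 4) and FGFR3, a fibroblast growth factor receptor, by -0.51 ± 0.17 (-0.49 without them), both without overlap. TIMP3, an inhibitor of matrix metalloproteinases, differed by -0.48 ± 0.16 with overlap. This was the most negative value among 25 stellate cell and fibroblast markers, of which 11 were higher and 14 lower in diet H. TGFB2, DKK3, VEGFC and FGFR3 could not turn their sign within a set of title numbers, since their groups did not overlap. TIMP3, which could have turned, kept its sign in both sets. TGFB2 averaged 5.30 ± 0.11 in diet H and 5.77 ± 0.22 in diet E (SD, n = 4 each).

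The remaining genes of the lower set were of mixed function. GTF2I, a general transcription factor, differed by -0.57 ± 0.19 without overlap, with -0.37 when diet H replicates 3 and 4 were left out. PIK3C2G, a class II phosphoinositide 3-kinase, differed by -0.55 ± 0.20 without overlap, and by -0.58 without those birds. GK5, a member of the glycerol kinase family, differed by -0.50 ± 0.22 without overlap, but by -0.08 up to 25, -0.92 above and -0.26 without diet H replicates 3 and 4. PTPN14, a protein tyrosine phosphatase, differed by -0.49 ± 0.18, again without overlap. The PTPN14 values were 6.21, 6.17, 5.44 and 5.59 in diet H, against 6.31, 6.38, 6.30 and 6.39 in diet E, so that the 2 low livers were replicates 3 and 4 and the difference was -0.16 without them. MIGA2, a protein of the mitochondrial outer membrane, differed by -0.56 ± 0.18, DCBLD1 by -0.55 ± 0.17 and FAXDC2, a fatty acid hydroxylase domain protein, by -0.57 ± 0.18, each with overlap, and these became -0.37, -0.50 and -0.69 without the same 2 birds.

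Genes higher in diet H included several of immune cells. KK34, an interleukin-5-like transcript of the chicken, read 6.32, 6.34, 6.26 and 6.37 in diet H, against 5.14, 5.91, 5.51 and 5.93 in diet E. The 4 diet H livers lay within a narrow band above all diet E livers, at 6.32 ± 0.05 in diet H and 5.62 ± 0.38 in diet E (SD, n = 4 each), a difference of 0.70 ± 0.24 (1.63-fold, adjusted p = 0.942). Diet F spanned 5.66 to 5.96, and diet A 5.59 to 6.81, so the band was not above every other liver. CYTIP, a cytohesin-binding protein of lymphocytes, read 5.0, 5.28, 5.42 and 5.14 in diet H, against 4.82, 4.61, 4.82 and 4.87 in diet E. CD247, the zeta chain of the T cell receptor complex, read 6.76, 7.18, 6.82 and 6.79 in diet H, against 6.36, 6.61, 6.43 and 6.57 in diet E. Neither overlapped, with differences of 0.43 ± 0.14 for CYTIP and 0.39 ± 0.15 for CD247, and of 0.36 and 0.47 without diet H replicates 3 and 4, where KK34 stood at 0.71. TAP2, which carries peptides to MHC class I, differed by 0.55 ± 0.18 with overlap, at 0.08 within title numbers up to 25 and 1.02 above.

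Other higher genes had low or moderate signals. MIR2129, a microRNA gene, read 5.27, 5.26, 5.49 and 5.50 in diet H, against 5.01, 4.71, 4.86 and 5.13 in diet E, a difference of 0.45 ± 0.14 without overlap. The array signal of the gene is that of its precursor region and does not measure a mature microRNA. MSLN, mesothelin, a surface protein of mesothelial cells, differed by 0.50 ± 0.16 without overlap. THSD7B, a thrombospondin repeat protein, differed by 0.76 ± 0.25, EXOSC1, a subunit of the RNA exosome, by 0.53 ± 0.18 and PGBD5, a gene derived from a transposase, by 0.58 ± 0.20, each with overlap. Without diet H replicates 3 and 4 these were 0.48, 0.33 and 0.58, and MIR2129 and MSLN were at 0.34 and 0.43. FBXL18, an F-box protein, differed by 0.52 ± 0.19, PRELID3A, a lipid carrier of mitochondria, by 0.42 ± 0.23, NATD1 by 0.41 ± 0.18, CNTN5, a contactin, by 0.41 ± 0.19 and NKAIN4 by 0.39 ± 0.23, each without overlap. Without diet H replicates 3 and 4 they were at 0.25, 0.31, 0.21, 0.32 and 0.20. CNTN5 was dim in 6 of the 8 livers, which leaves its difference close to the lowest signals of the array.

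**Figure D2:**
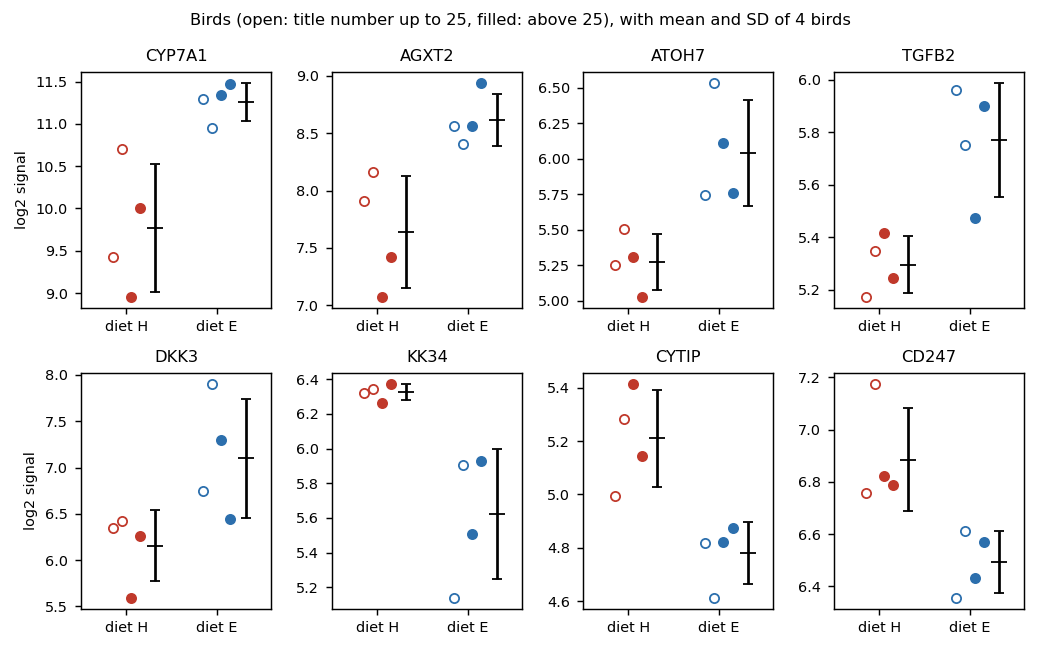
Log2 signal (vertical axes, each with its own range) of 8 genes in single diet H birds (red) and diet E birds (blue). Open circles are birds with title numbers up to 25 and filled circles above 25, and bars show the mean with its SD over 4 birds. All 8 genes were picked for groups that do not overlap or for a small p, and all 8 had no overlap.

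Gene lists for liver functions and cell types, 37 in all, showed how the differences were spread. A list is described by its count and its median, beside 46.6% of all genes higher in diet H and a median of -0.02 over all genes. The medians ran from -0.36 for cell cycle genes to 0.22 for cytosolic ribosomal protein genes. In 28 of the 37 lists the median lay farther from 0 above 25 than up to 25, and in 27 the sign was opposite in the 2 sets of title numbers. Within title numbers above 25, 2433 genes (21.1%) passed an adjusted p of 0.05 in limma between the 2 birds of each diet, 810 (7.03%) higher and 1623 (14.1%) lower in diet H. Members counted below as called higher or lower above 25 passed this test, and are to be read against these shares of all genes. Within title numbers up to 25, 1 of 20804 features (0.00481%) passed, and 0 of the 11528 genes. These calls rest on 2 birds a diet with consecutive numbers. The correlation within such pairs was estimated at 0.432, and the fit takes the birds as independent, so the adjusted p-values within the sets may be too small. Without diet E replicate 4 or 3, or diet H replicate 3 or 4, the 3804 features called above 25 became 0, 1, 11 and 384, and a fit on diets H and E alone called 0.

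**Figure D3:**
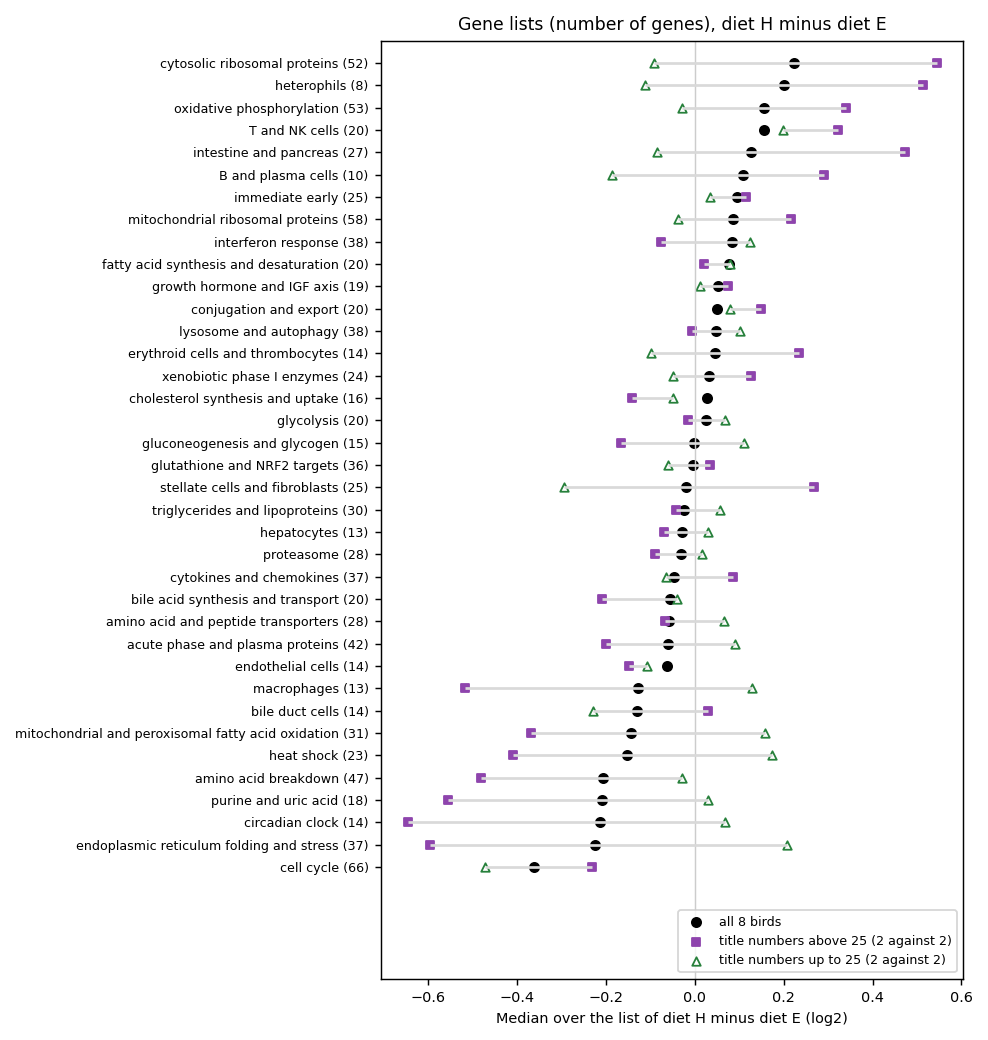
Median over each gene list of diet H minus diet E on the log2 scale (horizontal axis), for all 8 birds (black circles) and for the 2 against 2 birds with title numbers above 25 (purple squares) or up to 25 (green triangles). Cytosolic ribosomal protein genes lie at 0.22 with all birds, 0.54 above 25 and -0.09 up to 25, and endoplasmic reticulum genes at -0.22, -0.60 and 0.21.

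Most genes of nitrogen metabolism had lower means in diet H, and the list medians were lower in the birds with the higher title numbers. Of 47 genes of amino acid breakdown, 35 were lower and 12 higher, with a median of -0.21, and 4 had an unadjusted p under 0.05, all lower. Among all genes, 0.972% were lower at that p in limma. The median was -0.03 within title numbers up to 25 and -0.48 above, and 30 of the 47 were lower in each set. Above 25, 12 were called lower and 2 called higher. Without diet H replicates 3 and 4 the median was -0.09. KYNU, kynureninase of tryptophan breakdown, read 8.26, 8.53, 6.04 and 7.77 in diet H, against 7.94, 8.55, 8.90 and 8.84 in diet E. Diet H replicate 3 was far below the others and replicate 4 was next, and KYNU was 3.91-fold lower above 25 (adjusted p = 0.0181) and 0.15 higher on the log2 scale up to 25. BCKDHB, a subunit of the branched-chain keto acid dehydrogenase, differed by -0.58 ± 0.26, but by -0.058 without diet H replicates 3 and 4. ACMSD, which diverts tryptophan from NAD synthesis, differed by -0.56 ± 0.26 and by -0.35 without them. HPD, a dioxygenase of tyrosine breakdown and a hepatocyte marker, differed by -0.38 ± 0.20, with -0.40 up to 25 and -0.36 above.

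Purine synthesis, through which birds dispose of nitrogen as uric acid, followed the same lines. Of 18 genes of purine and uric acid metabolism, 13 were lower and 5 higher, with a median of -0.21. PPAT, which catalyses the committed step, read 10.02, 10.30, 8.70 and 9.35 in diet H, against 10.08, 10.68, 10.40 and 10.15 in diet E. Its low livers were diet H replicates 3 and 4, the difference of -0.73 ± 0.27 became -0.17 without them, and it fell by 1.25 above 25 (2.38-fold, adjusted p = 0.0174). PAICS, which acts later in the same pathway, differed by -0.59 ± 0.21 and by -0.23 without those birds. GART, a trifunctional enzyme of purine synthesis, differed by -0.44 ± 0.24 and by -0.02 without them. The list had a median of -0.55 above 25, where 13 of 18 were lower, 7 called lower and 0 called higher, against 0.03 up to 25 and 0.05 without diet H replicates 3 and 4.

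Transporters of amino acids and peptides, 28 genes, had a median of -0.06 with 12 higher and 16 lower, at 0.07 up to 25 and -0.07 above. SLC6A6, the taurine transporter, read 9.71, 9.71, 8.78 and 8.76 in diet H, against 9.87, 9.72, 9.50 and 9.82 in diet E. Replicates 1 and 2 of diet H matched the diet E birds, replicates 3 and 4 lay below all others, and the difference above 25 was 1.86-fold lower (adjusted p = 0.0197). SLC7A5, the large neutral amino acid transporter, differed by 0.38 ± 0.21, with 0.30 up to 25 and 0.46 above. Above 25 the list split into 14 higher and 14 lower, of which 0 were called higher and 6 (of 28) lower, beside 7.03% and 14.1% of all genes.

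Circadian clock genes, 14 in number, had a median of -0.21 with 11 lower and 3 higher. PER2, a repressor in the negative arm of the clock, read 7.45, 8.04, 5.83 and 5.28 in diet H, against 7.39, 8.24, 7.22 and 7.78 in diet E. It was 3.85-fold lower above 25 (adjusted p = 0.0174), and -0.07 up to 25. CRY1, its partner, read 8.66, 8.47, 7.31 and 7.38 in diet H, against 8.61, 8.54, 8.29 and 8.28 in diet E, 1.92-fold lower above 25 (adjusted p = 0.0159) and -0.01 up to 25. Both genes were thus low in the same 2 livers. HLF, a clock-controlled transcription factor, was the 1 member without overlap, at -0.26 ± 0.13, and at -0.15 without diet H replicates 3 and 4. Above 25 the list had a median of -0.65 with 11 of 14 lower, 5 called lower and 1 called higher, and without diet H replicates 3 and 4 the median was 0.11.

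Protein folding genes showed the same split. Of 37 genes of endoplasmic reticulum folding and stress, 29 were lower and 8 higher, with a median of -0.22. An unadjusted p under 0.05 in limma was reached by 3, all lower, beside 0.972% of all genes. PDIA4, a protein disulfide isomerase, read 10.70, 11.16, 9.70 and 9.83 in diet H, against 10.55, 11.19, 11.14 and 11.16 in diet E. HSP90B1, a chaperone of the endoplasmic reticulum, read 12.44, 12.92, 11.46 and 11.55 in diet H, against 12.34, 12.80, 12.69 and 12.89 in diet E. In both genes diet H replicates 3 and 4 were the lowest of the 8, with 2.60-fold and 2.44-fold lower means above 25 (adjusted p = 0.0159 each). PDIA6, another isomerase, was 1.90-fold lower above 25 (adjusted p = 0.0174). Above 25, 29 members were lower and 8 higher, with 17 called lower and 0 called higher and a median of -0.60, while 30 were higher within title numbers up to 25. The median was 0.21 up to 25 and 0.02 without diet H replicates 3 and 4. Heat shock genes, 23 in number, had a median of -0.15 that turned to 0.17 up to 25 and 0.07 without diet H replicates 3 and 4. It was -0.41 above 25, with 7 of 23 called lower and 0 called higher, beside 14.1% and 7.03% of all genes. Plasma and acute phase proteins, the secreted products of hepatocytes, had a median of -0.06 over 42 genes, at 0.09 up to 25 and -0.20 above, where 14 were called lower and 1 called higher.

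Genes of cytosolic ribosomes and of oxidative phosphorylation lay on the other side. Of 52 cytosolic ribosomal protein genes, 50 were higher and 2 lower in diet H, with a median of 0.22, yet 0 had an unadjusted p under 0.05. RPL12, a protein of the large subunit, read 11.25, 10.73, 11.47 and 11.90 in diet H, against 11.12, 10.85, 10.97 and 10.89 in diet E, and was 1.69-fold higher above 25 (adjusted p = 0.0417) and 0.01 up to 25. RPL7 read 11.10, 11.11, 11.40 and 11.43 in diet H, against 11.03, 10.99, 11.10 and 10.92 in diet E, without overlap but with a difference of 0.25 ± 0.13 (95% interval -0.02 to 0.53). RPL29 differed by 0.34 ± 0.17, with 0.37 up to 25 and 0.31 above. The list had a median of 0.54 above 25, where 23 were called higher and 0 called lower, of -0.09 up to 25, where 41 were lower, and of -0.10 without diet H replicates 3 and 4.

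Of 53 oxidative phosphorylation genes (subunits of the respiratory complexes and of ATP synthase) 44 were higher and 9 lower, with a median of 0.16. COX6C, a subunit of cytochrome c oxidase, read 9.83, 9.57, 9.88 and 9.87 in diet H, against 9.34, 9.05, 9.59 and 9.54 in diet E. All diet H values but that of replicate 2 lay above all diet E values, and the difference of 0.41 ± 0.18 was 0.32 without diet H replicates 3 and 4. NDUFC2, a subunit of complex I, differed by 0.59 ± 0.33, and by -0.04 without those birds. The list had a median of 0.34 above 25, where 13 were called higher and 0 called lower, of -0.03 up to 25, and of -0.13 without diet H replicates 3 and 4. Mitochondrial ribosomal protein genes, 58 in number, had a median of 0.09 with 36 higher and 22 lower, at -0.04 up to 25 and 0.22 above. Above 25, 35 were higher and 23 lower, with 10 called higher and 9 called lower. Proteasome genes, 28 in number, had a median of -0.03.

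Among lipid lists, fatty acid oxidation had more lower than higher members over all 8 birds, while synthesis, lipoprotein and cholesterol genes were split. Fatty acid synthesis and desaturation, 20 genes, had a median of 0.08 with 12 higher and 8 lower. ELOVL1, an elongase of very long chains, read 9.24, 8.74, 10.48 and 9.80 in diet H, against 9.24, 8.45, 8.94 and 9.15 in diet E, with a difference of 0.62 ± 0.32 that was 0.04 without diet H replicates 3 and 4. CETP, the cholesteryl ester transfer protein of plasma, read 8.07, 8.15, 9.30 and 8.37 in diet H, against 8.63, 7.35, 7.81 and 7.40 in diet E, a difference of 0.67 ± 0.29 (0.31 without diet H replicates 3 and 4) and 2.34-fold higher above 25 (adjusted p = 0.0458). The diet E bird with the highest CETP, replicate 1, lay above 3 of the 4 diet H birds. Genes of triglycerides and lipoproteins as a list of 30 had a median of -0.02, at 0.06 up to 25 and -0.04 above. DHCR7, the last enzyme of cholesterol synthesis, differed by -0.48 ± 0.22 in a list of 16 cholesterol genes with a median of 0.03, and was 1.78-fold lower above 25 (adjusted p = 0.0346) and at -0.14 without diet H replicates 3 and 4. The median of the cholesterol list was -0.05 up to 25, -0.14 above and -0.07 without those birds. Fatty acid oxidation genes, 31 in number, had a median of -0.14 with 23 lower and 8 higher. The sign turned with the title numbers, at 0.16 up to 25, where 23 were higher, and -0.37 above, where 25 were lower.

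Glucose metabolism held the gene with a large rise above 25. G6PC, glucose-6-phosphatase, which releases glucose from the liver, read 6.99, 6.79, 8.49 and 8.47 in diet H, against 7.08, 7.12, 6.60 and 6.95 in diet E. It rose 3.25-fold above 25 (adjusted p = 0.0108) and differed by -0.20 up to 25, while above 25 its list of 15 gluconeogenesis and glycogen genes had 6 higher and 9 lower with a median of -0.16, 2 called higher and 0 called lower. The other gene called, PYGL, the liver glycogen phosphorylase, read 9.99, 9.93, 11.19 and 11.21 in diet H, against 10.50, 9.63, 10.28 and 10.24 in diet E, 1.92-fold higher above 25 (adjusted p = 0.0303). Both enzymes were high in the same 2 livers. PDK4, a kinase that slows pyruvate oxidation in fasting, differed by -0.55 ± 0.31 with an interval that holds 0 (-1.21 to 0.10), and by -0.19 without diet H replicates 3 and 4. Glycolysis genes, 20 in number, had a median of 0.03.

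Genes that handle foreign compounds, plant constituents among them, were split about evenly. Phase I enzymes, 24 genes, had a median of 0.03 with 13 higher and 11 lower, conjugation and export, 20 genes, 0.05 with 11 higher and 9 lower, and glutathione genes and NRF2 targets, 36 genes, had 17 higher and 19 lower. The phase I median was -0.05 up to 25, 0.13 above and -0.04 without diet H replicates 3 and 4. AHR2, an aryl hydrocarbon receptor, which senses plant and other aromatic compounds, read 6.87, 6.69, 8.22 and 8.07 in diet H, against 6.82, 6.60, 6.54 and 7.23 in diet E. It was 2.40-fold higher above 25 (adjusted p = 0.0163) and differed by 0.07 up to 25, so that again 2 of 4 birds carried the difference. Other members went the other way: above 25, 3 phase I genes were called higher and 4 called lower. Conjugation and export had 0 called higher and 4 called lower, and glutathione genes and NRF2 targets 6 and 6. Among all genes these shares were 7.03% and 14.1%. GSTT1, a glutathione transferase, read 10.06, 9.87, 9.69 and 9.97 in diet H, against 10.25, 10.34, 10.12 and 10.34 in diet E, without overlap, at -0.37 ± 0.15, with -0.33 up to 25 and -0.40 above. UGT2A1, a glucuronosyltransferase, differed by -0.35 ± 0.18, and by -0.14 without diet H replicates 3 and 4. GPX3, the glutathione peroxidase of plasma, differed by 0.35 ± 0.20, and by 0.08 without them.

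Immune and signalling lists differed little as wholes. Interferon response genes, 38 in number, had a median of 0.08 with 23 higher and 15 lower, at 0.12 up to 25, -0.08 above and 0.34 without diet H replicates 3 and 4. Their level per bird, relative to the mean of the 16 arrays, was 0.11 ± 0.40 in diet H and 0.05 ± 0.41 in diet E (SD, n = 4 each). CCL19, a chemokine that draws T and dendritic cells, read 6.78, 7.14, 7.37 and 7.18 in diet H, against 6.70, 6.73, 6.39 and 6.80 in diet E, with 1 diet H bird below the highest diet E bird and a difference of 0.46 ± 0.17, or 0.31 without diet H replicates 3 and 4. GBP4L, a guanylate-binding protein, differed by 0.60 ± 0.29, with -0.03 up to 25 and 1.24 above (adjusted p = 0.0318). Cytokines and chemokines, 37 genes, had a median of -0.05, at -0.06 up to 25, 0.09 above and 0.03 without diet H replicates 3 and 4. Immediate early genes, 25 in number, had a median of 0.10 with 16 higher and 9 lower, and of -0.06 without diet H replicates 3 and 4. They include FOSL2, an AP-1 subunit, at 0.45 ± 0.19 (0.23 without those birds), and TRIB1, a pseudokinase that lowers lipid synthesis in mouse liver, at 0.46 ± 0.18 (0.32 without them). The growth hormone and IGF axis, 19 genes, had a median of 0.05, and DIO1, the deiodinase that activates thyroid hormone, was 1.72-fold lower above 25 (adjusted p = 0.0178) and 0.09 higher on the log2 scale up to 25. Lysosome and autophagy genes, 38 in number, had a median of 0.05, with ATG12, a conjugation protein of autophagy, at 0.48 ± 0.18 (0.23 without diet H replicates 3 and 4) and NPC1, the lysosomal cholesterol exporter, at -0.35 ± 0.16 (-0.15 without them).

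Cell cycle genes had the most negative median of the 37 lists, and single birds set it. Of 66 genes of DNA replication and mitosis, 57 were lower and 9 higher in diet H, with a median of -0.36, and 0 had an unadjusted p under 0.05. Relative to the mean of all 16 arrays, the list median per bird was -0.41, 0.92, -0.30 and -0.64 in diet H, against 0.27, 1.21, -0.26 and -0.31 in diet E. The 2 high livers were replicate 2 of each diet, both with title numbers up to 25, and the list median ran from -0.71 without diet H replicate 2 to -0.02 without diet E replicate 2. It was -0.16 and -0.23 without diet H replicates 4 and 1, and 0.02 without diet H replicates 3 and 4 together. Within title numbers up to 25 it was -0.47 with 63 of 66 genes lower, and above 25 it was -0.23 with 45 lower. MCM6, a subunit of the replication helicase, read 6.77, 8.35, 6.80 and 6.20 in diet H, against 7.59, 9.05, 7.21 and 7.04 in diet E, a difference of -0.69 ± 0.49 that was not distinguishable from 0 (95% interval -1.74 to 0.35). FEN1, a nuclease of lagging strand synthesis, differed by -0.47 ± 0.27 and CCND1, cyclin D1 of the G1 phase, by -0.34 ± 0.22, with -0.18 for FEN1 and 0.068 for CCND1 without diet H replicates 3 and 4.

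Markers of blood and other liver cells showed which cell types could move with these values. Of 20 T and NK cell markers, 16 were higher in diet H, with a median of 0.16, 3 at an unadjusted p under 0.05 (all higher) and 2 without overlap. Among all genes, 0.954% were higher at that p in limma, and 0.399% had every diet H bird above every diet E bird. Their summed linear signal was 2607 to 3345 in diet H and 2521 to 2669 in diet E, and 0 of the 20 were dim in all 8 livers. CD3D, a chain of the T cell receptor complex, read 7.21, 7.85, 8.02 and 7.55 in diet H, against 7.44, 7.20, 7.03 and 7.08 in diet E, at 0.47 ± 0.20 (0.34 without diet H replicates 3 and 4), and CTLA4, an inhibitory receptor, differed by 0.39 ± 0.18 (0.22 without them) but was dim in 5 of 8 livers. Up to 25, 13 of the 20 were higher in diet H, and above 25, 16 were. Relative to the mean of 16 arrays, the list median per bird was -0.07, 0.24, 0.19 and 0.16 in diet H. It was 0.03, -0.13, -0.14 and -0.05 in diet E, so diet H replicate 1 lay below diet E replicates 1 and 4. The median of diet H minus diet E was 0.20 up to 25, 0.32 above and 0.22 without diet H replicates 3 and 4. The list was among the 3 of 37 whose median kept its sign in every setting tried. This is the group to which CD247 belongs, while KK34 and CYTIP are not on it, and its part in their values was not tested.

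Macrophage markers, 13 in number, had a median of -0.13 with 10 lower and 3 higher, but of 0.13 up to 25, where 10 were higher, -0.52 above, 0.12 without diet H replicates 3 and 4 and 0.07 without replicate 4 alone. They summed to 10056 to 12954 in diet H and 11775 to 13254 in diet E. MRC1, the mannose receptor of macrophages, read 10.01, 10.21, 8.68 and 9.23 in diet H, against 10.01, 10.15, 10.11 and 10.09 in diet E, 2.22-fold lower above 25 (adjusted p = 0.0159). TLR4, the receptor of bacterial lipopolysaccharide, differed by -0.40 ± 0.16, and by -0.15 without diet H replicates 3 and 4. STAB2, a scavenger receptor of sinusoidal endothelium, read 8.65, 8.62, 8.39 and 8.49 in diet H, against 8.86, 8.68, 9.01 and 9.07 in diet E, without overlap, at -0.36 ± 0.13. PECAM1, an adhesion molecule of endothelium and some blood cells, was 2.48-fold lower above 25 (adjusted p = 0.0159) and 0.40 up to 25. The endothelial list of 14 genes had 6 higher and 8 lower, with a median of -0.06. Its median was -0.11 up to 25 and -0.15 above, where 2 were called higher and 3 called lower. The list summed to 3607 to 4883 in diet H and 4352 to 4735 in diet E. MRC1 and PECAM1 thus had their lowest values in the 2 livers that stood apart, whereas the STAB2 difference was -0.27 without them.

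The lists of other cell types and tissues did not all lie on the same side over all 8 birds. Their medians ran from -0.13 for bile duct markers to 0.20 for heterophil markers. Each list below had a negative median up to 25 and a positive one above. Stellate cell and fibroblast markers, 25 genes, had a median of -0.02, at -0.30 up to 25 and 0.27 above, with sums of 8951 to 15076 in diet H and 10968 to 12936 in diet E. Bile duct markers, 14 genes, had a median of -0.13, at -0.23 up to 25 and 0.03 above, and sums of 3060 to 4384 in diet H and 3731 to 4465 in diet E, with CLDN10, a tight junction protein, at -0.31 ± 0.14 without overlap. Markers of intestine and pancreas, tissues that lie beside the liver at dissection, were higher for 23 of 27 genes with a median of 0.13, at 0.47 above 25 and -0.08 up to 25. They summed to 16034 to 19612 in diet H and 15348 to 17414 in diet E, and 7 of the 27 were dim in all 8 livers. Only 3 of the 27 lay in the upper quartile of all signals in all 8 livers, so few genes can set the sum. Some members also stand on the lipoprotein, transporter or bile duct lists, so the sum does not measure other tissue alone. PNLIPRP1, a pancreatic lipase-related protein, read 3.68, 3.85, 5.31 and 4.61 in diet H, against 4.06, 3.50, 3.80 and 3.19 in diet E, under the dim mark in 6 of 8, and its difference was 0.13 without diet H replicates 3 and 4. Erythroid and thrombocyte markers, 14 genes, had a median of 0.05, at -0.10 up to 25 and 0.24 above, and sums of 1685 to 3617 in diet H and 1928 to 3194 in diet E, with TFRC, the transferrin receptor, at 0.76 ± 0.36. Heterophil markers, 8 genes, had a median of 0.20, at -0.11 up to 25 and 0.51 above, and sums of 2535 to 4145 in diet H and 2140 to 5523 in diet E, with LYG2, a lysozyme, at -0.60 ± 0.43 (0.16 without diet H replicates 3 and 4). B and plasma cell markers, 10 genes, had a median of 0.11, at -0.19 up to 25 and 0.29 above, and sums of 8325 to 10610 in diet H and 8173 to 10530 in diet E. What part other tissue in the 2 high-numbered diet H livers has in the values above 25 was not tested.

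**Figure D4:**
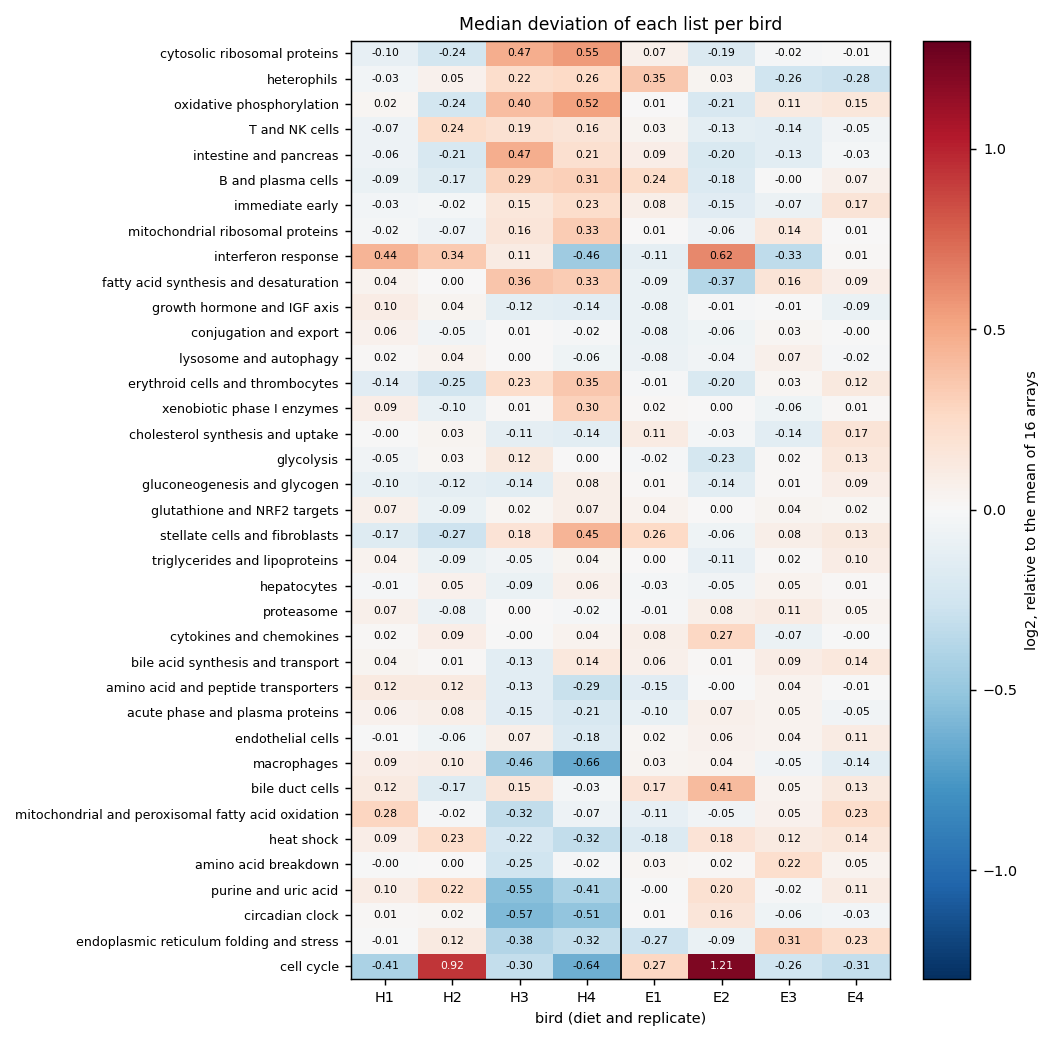
Median log2 deviation of each gene list (rows) in each diet H bird (H1 to H4) and diet E bird (E1 to E4), relative to the mean of each gene over the 16 arrays. Colours and printed values are the deviations, from blue (lower) to red (higher). H3 and H4 share high values for cytosolic ribosomal (0.47 and 0.55) and oxidative phosphorylation genes (0.40 and 0.52) and low ones for clock genes (-0.57 and -0.51), while H2 and E2 share high cell cycle values (0.92 and 1.21).

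The difference between the title number sets was itself tested, as diet H minus diet E above 25 minus the same up to 25. In limma 2919 of 20804 features (14.0%) passed adjustment, 1250 (6.01%) positive and 1669 (8.02%) negative, and among the genes 1825 (15.8%), of which 559 were positive and 1266 negative. Calls by list are to be read beside these 559 and 1266 of all 11528 genes. Cytosolic ribosomal protein genes had 12 positive and 0 negative calls among 52, and oxidative phosphorylation 8 and 0 among 53. Endoplasmic reticulum folding and stress had 0 and 14 among 37, plasma proteins 1 and 12 among 42 and amino acid breakdown 1 and 8 among 47. The count rests on few birds: it was 0 without diet H replicate 2 or without diet E replicate 1, 1 and 3 without diet E replicates 3 and 4, 7 and 76 without diet H replicates 3 and 4 in turn, and 7025 without diet E replicate 2. A fit on diets H and E alone called 0, with fewer birds behind the estimate of the spread.

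The 6 genes with the smallest p in that test included G6PC, given above, with a difference between the sets of 1.90 (adjusted p = 0.0234). SF3B5, a subunit of the splicing complex SF3B, read 7.18, 7.20, 8.48 and 8.66 in diet H, against 7.76, 7.57, 7.18 and 7.15 in diet E. TMCC3, a transmembrane coiled-coil protein, read 7.25, 7.32, 5.86 and 5.88 in diet H, against 6.66, 6.64, 7.24 and 7.22 in diet E. In both genes, and in G6PC, LRPPRC, EXOC3 and RIPK3, the diet E birds also differed between the sets, in the opposite direction to the diet H birds. A choice by this test favours genes in which the diets move in opposite directions. LRPPRC, which stabilises mitochondrial messenger RNA, read 9.23, 9.15, 8.09 and 8.19 in diet H, against 8.47, 8.93, 9.42 and 9.26 in diet E. EXOC3, an exocyst subunit, read 8.83, 9.0, 7.63 and 7.47 in diet H, against 8.29, 8.53, 9.17 and 8.79 in diet E. RIPK3, a kinase of necroptosis, read 7.46, 7.61, 6.48 and 6.19 in diet H, against 6.69, 6.76, 7.33 and 7.23 in diet E. For RIPK3 the 2 sets nearly cancelled, with -0.07 over all birds, 0.81 up to 25 and -0.95 above. Each of the 6 had adjusted p = 0.0234 for the difference between the sets.

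**Figure D5:**
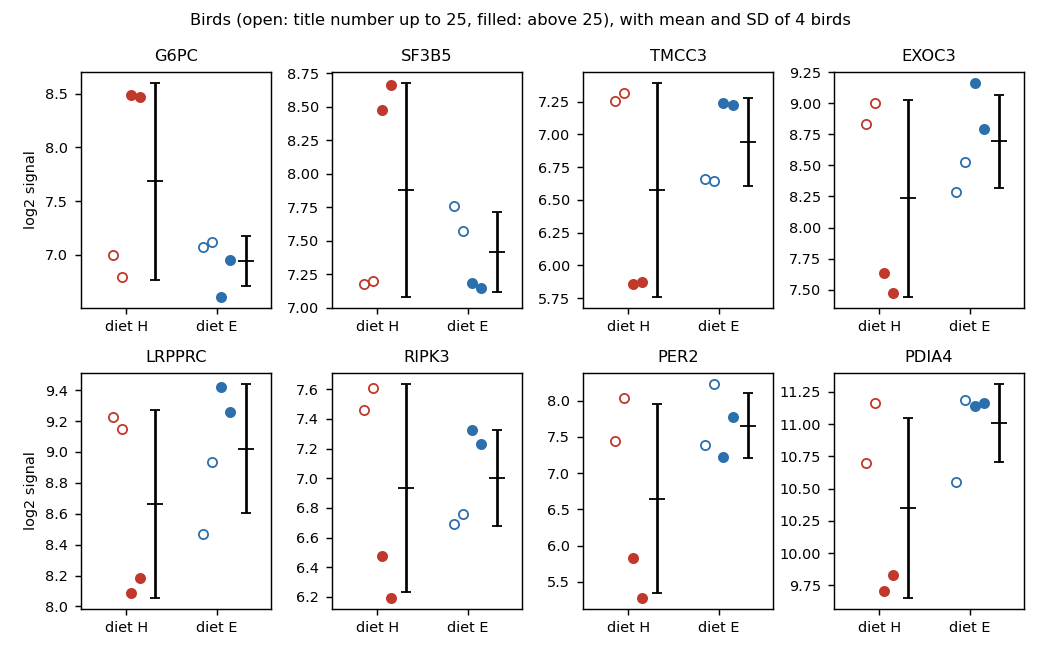
Log2 signal (vertical axes, each with its own range) in single diet H birds (red) and diet E birds (blue) for the 6 genes with the smallest p for the difference between the title number sets, and for PER2 and PDIA4. Open circles are title numbers up to 25, filled circles above 25, and bars show the mean with its SD over 4 birds. In each panel the 2 filled diet H birds lie together, away from the 2 open ones.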

How the data were processed

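Liver RNA of 16 male broilers, 4 on each of diets A, E, F and H, was measured on 1-colour Affymetrix arrays. The authors deposited 1 value per feature and array on a log2 scale (range 0.93 to 14.63, 0 missing). Per the submitters' processing notes, GCOS 1.1.1 was used. The sources used here do not give the background correction, summarization or normalization. Genes were named from the platform annotation, and the RefSeq table for GRCg7b held 11727 of the features and changed 0 symbols, while 256 features had several symbols and 8248 were unnamed. Where a gene had several features, the one with the highest mean stood for it. Coordinates and sequences are not printed, since the genome build behind the array is unknown here.

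Each array was taken as 1 bird, as the series' design text counts chickens per group, and replicate numbers follow accession order and pair nothing. limma 3.58.1 (R 4.3.3) fitted 1 mean per diet to all 16 arrays with 12 residual degrees of freedom, and the two-sided moderated test of diet H minus diet E was adjusted by Benjamini-Hochberg over 20804 features at 0.05. A second fit with 1 mean per diet and title number set (up to 25, above 25) gave the differences within sets and between them. If birds with consecutive numbers share more than the diet, the p-values within the sets are too small: the correlation within such pairs was estimated at 0.432, and the median SD was 0.238 within pairs and 0.312 within diets. The fits were tested on simulated data drawn without such a correlation, so that test does not show its effect on the p-values.

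The members and the 27 pathway and 10 marker lists were chosen with earlier results of these data known. Named genes are the 20 with the smallest p for diet H minus diet E, the 10 higher and 10 lower with the largest difference among those without overlap, 3 per list by p (5 for the 8 lists with the largest median), of which the text gives a part, and 6 for the difference between sets, leaving out placeholder symbols and, outside the lists, genes under the 20th percentile of all values. Lists were given no test. Alternatives covered quantile normalization, a filter on dim features, the diets in the fit, title numbers, the prior, array weights, gene span, the mean of all features of a gene and left-out birds. Pairs of title numbers as a random block, and the alternatives for the counts within sets, were added after seeing the data.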

Additional observations from a re-analysis of the deposited data

Results flagged for a closer look

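The difference between the title number sets in diet H minus diet E passed adjustment in limma for 2919 features. It also passed for 17 of the 87 genes named here, beside 1825 of all 11528 genes (15.8%). G6PC, SF3B5, TMCC3, EXOC3, LRPPRC and RIPK3 were picked by their p in this same test, so their passing follows from the choice. On the log2 scale the difference between the sets was 1.90 for G6PC, 1.88 for SF3B5, 1.20 for AHR2 and 0.94 for TAP2. It was -2.11 for KYNU, -2.0 for TMCC3, -1.94 for EXOC3, -1.88 for PER2, -1.75 for RIPK3, -1.71 for PECAM1 and -1.69 for LRPPRC. It was -1.44 for PDIA4, -1.40 for HSP90B1, -1.18 for MRC1, -0.94 for PDIA6, -0.93 for CRY1 and -0.87 for DIO1. These genes include ones of glucose release, the clock, protein folding and macrophage and endothelial markers, and were not tested for a shared function.

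A single bird lay far from the other 3 of its diet in 9 of 248 sets of 4 values tested. Chance gives about 1 in 20, or 12.4 sets, so the 9 were not more than that. In diet H these were CD247 in replicate 2 (7.18, above), TRIB1 in replicate 1 (7.97, below), COX6C in replicate 2 (9.57, below), and the list medians, relative to the mean of 16 arrays, of gluconeogenesis and glycogen in replicate 4 (0.075, above) and of amino acid breakdown in replicate 3 (-0.25, below). In diet E these were PRELID3A in replicate 2 (4.85, below), HLF in replicate 3 (8.05, below), PDIA4 in replicate 1 (10.55, below) and amino acid breakdown in replicate 3 (0.22, above).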

How the results depend on the processing

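Over all birds, 0 features were called for diet H minus diet E in every setting tried, leaving out each bird and diet H replicates 3 and 4 included. Within title numbers the count was 1 up to 25 and 3804 above 25. Features at an unadjusted p under 0.05 (566) numbered 344 with diets H and E alone, 912 with the title number set as a term, 1373 and 7778 within title numbers up to 25 and above, 1140 with array weights, 317 with the gene span trend taken out (11727 features), 865 without diet H replicates 3 and 4, 128 with pairs of title numbers as a random block, and 327 to 2885 with each bird left out. Features without overlap (215) numbered 136 without dim features, 6101 and 13974 within title numbers up to 25 and above, 2614 without diet H replicates 3 and 4, and 376 to 1149 with each bird left out, since fewer birds overlap less often. The difference between the sets (2919) was called for 0 features with diets H and E alone, 1019 with array weights, 1874 with the gene span trend taken out, and 0 to 7025 with each bird left out, and could not be fitted without diet H replicates 3 and 4. The count above 25 (3804) was 0 with diets H and E alone, 2397 with the gene span trend taken out and 0 to 5336 with each bird left out. The 1 feature up to 25 was lost (0) without dim features, with diets H and E alone, with limma-trend, array weights or the gene span trend, and with each bird left out. The cause of these shifts was not tested.

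Of 87 named genes, 64 kept their sign in every setting, 86 with each bird left out and 70 without diet H replicates 3 and 4. The genes were picked from these same birds, many by a small p or by groups without overlap. A gene without overlap cannot turn its sign when birds are left out or split by title number. The counts therefore follow in part from the choice. RIPK3, at -0.07 with all birds, turned to 0.082, 0.18, 0.039 and 0.0071 without diet H replicate 3, diet H replicate 4, diet E replicate 3 and diet E replicate 4, in a range of -0.29 to 0.18 with each bird left out. Within title numbers up to 25 the sign turned for SF3B5 (-0.48), G6PC (-0.20), CYP27A1 (-0.057), PYGL (-0.10), GBP4L (-0.030), PNLIPRP1 (-0.012), TMCC3 (0.64), EXOC3 (0.51), LRPPRC (0.49), RIPK3 (0.81), KYNU (0.15), PDIA6 (0.019), PDIA4 (0.061), HSP90B1 (0.12), MRC1 (0.030), PECAM1 (0.40), DIO1 (0.090) and CCND1 (9.95e-05). Without diet H replicates 3 and 4 it turned for SF3B5 (-0.23), G6PC (-0.045), CYP27A1 (-0.18), PYGL (-0.20), AHR2 (-0.020), NDUFC2 (-0.038), TMCC3 (0.34), EXOC3 (0.22), LRPPRC (0.17), RIPK3 (0.53), PER2 (0.089), CRY1 (0.13), HSP90B1 (0.0034), CCND1 (0.068), MRC1 (0.019), PECAM1 (0.35) and LYG2 (0.16). Of 37 list medians, 3 kept their sign in every setting (T and NK cells, amino acid breakdown, conjugation and export), 19 with each bird left out and 17 without diet H replicates 3 and 4. Quantile normalization turned the cholesterol list to -0.02 and the glycolysis list to -0.01. No paired analysis was possible because the replicate numbers follow accession order and the labels pair no birds across diets. How far signals lie above background was not known, which limits the dim genes.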
